A study of Mus musculus with 2 samples.

Results

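The 14-3-3 proteins are a family of 7 mouse genes, and 31 of the 45037 probe sets analysed on each array carry the symbol of 1 of them: Ywhaq with 8, Ywhaz with 7, Ywhab with 6, Ywhae and Ywhag with 4 each, and Ywhah and Sfn with 1 each. All 31 are given here. ANSO4E, a mouse neural stem cell line derived from a transgenic animal of a mixed background (C57BL/6JxSJL/JF1 oocytes, BDF1 sperm), received the GeneNet mouse 40K lentiviral siRNA library in both groups. The reference control had no MNNG, an alkylating agent that methylates DNA, and the MNNG survivors were the cells that outlived exposure to 500 µM MNNG for 15 min, were grown and were treated again. The recovered library inserts of each group were read on 1 Affymetrix GeneChip mouse genome array, so no difference here has a replicate or a p-value. A probe set gathers several short probes for 1 transcript, and its log2 signal is read here as the abundance of recovered library inserts against a gene, not as the expression of that gene in the cells. Pairs of values below are log2 signals, the control array first, and a value in parentheses after a pair is the difference, survivors minus control.

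14-3-3 proteins form dimers whose grooves hold phosphorylated serine or threonine motifs of many client proteins. They keep the death promoter Bad, the FoxO transcription factors and the Cdc25 phosphatases in the cytoplasm, and so stand between survival kinases, the DNA damage checkpoint and cell death. They are abundant in brain. In this screen, an insert whose knockdown protected cells from MNNG should be more abundant in the survivors, and the question for each gene was whether its probe sets were higher or lower there.

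Most 14-3-3 probe sets were lower in the MNNG survivors, and a single Ywhaq probe set was far higher. Of the 31, 19 were lower, 9 were higher and 3 were equal, beside 36.4%, 44.2% and 19.4% of all probe sets. The median log2 difference (survivors minus reference control) of the 31 was -0.39, beside a median of 0.00 over all probe sets. By more than 1 on the log2 scale, 10 of 31 (32.3%) were lower, where 3.93% of all probe sets were, and 1 was higher, where 3.75% of all probe sets were. By more than 2.5, the log2 ratio limit of the study, 1 was lower and 1 was higher, with backgrounds of 1.01% and 0.155%. The deposited values do not match the signal intensities printed in the paper. These counts therefore borrow the size of the study's limit and do not repeat its selection. The study also required a signal intensity above 1000, a limit that was not applied here. No 14-3-3 gene is in its list of selected genes. The family was chosen with these differences already known, so its counts describe the 31 probe sets and support nothing further. The 4 lower values nearest to the limit, at Ywhah, Ywhae and a pair of Ywhaq probe sets, passed it by under 0.02, and with a limit of 1.5 the count of lower probe sets was 4, beside 1.72% of all probe sets.

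On the log2 signal scale, the members ran from 0.14 to 3.88 in the reference control, with a median of 1.37, and from -0.11 to 5.19 in the survivors, with a median of 0.98. The medians of the whole arrays were 0.69 and 0.74. In the reference control 27 of the 31 lay above the array median, and in the survivors 22 did, though the level of a probe set also depends on its probes. A log2 signal above 5, which marks the bright end of these arrays, was reached by 0 members in the reference control (background 0.668%) and by 1 in the survivors (background 0.129%).

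**Figure D1:**
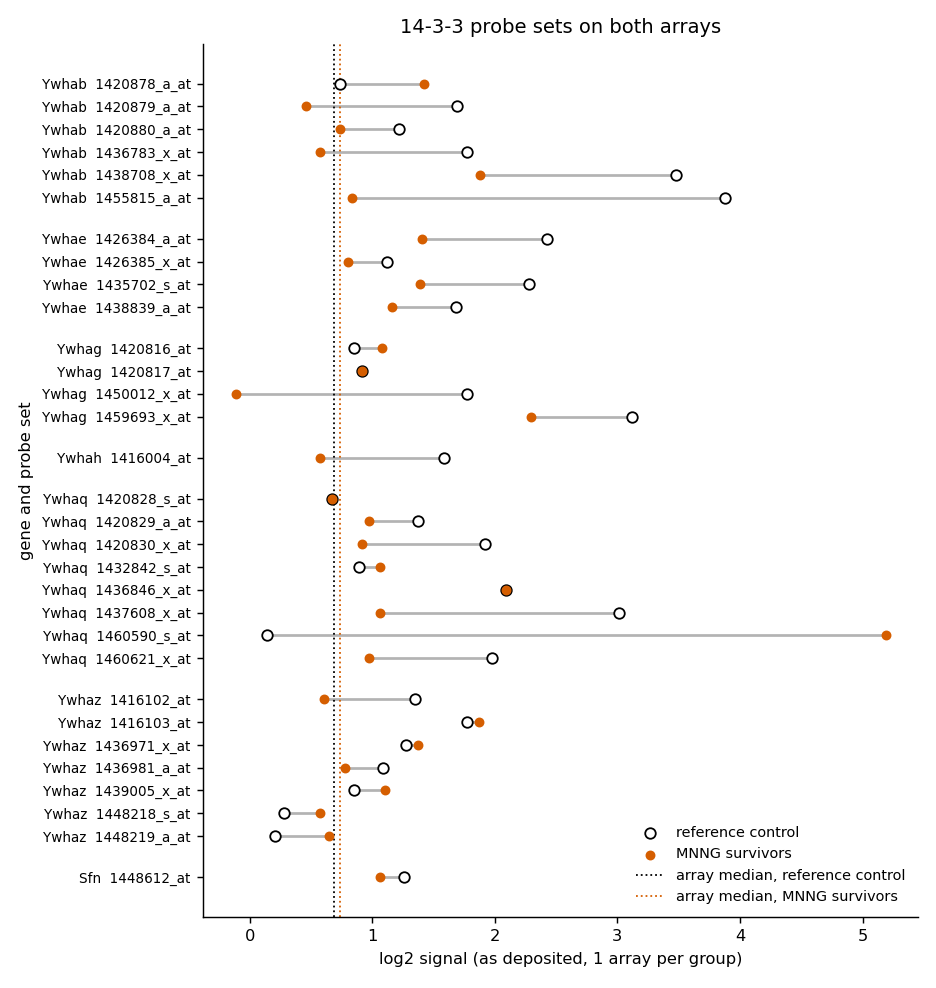
Log2 signal (horizontal axis) of each 14-3-3 probe set, grouped by gene (vertical axis), on the reference control array (open circles) and the MNNG survivors array (filled circles), with the array medians as dotted lines and 1 array per group. Ywhaq 1460590_s_at is at 0.14 and 5.19, and the other 30 probe sets stay below 3.9 on the control array and below 2.3 on the survivors array.

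Ywhab, the beta isoform and a partner of Raf kinases, had the most lower values. Its probe set 1455815_a_at read 3.88 on the control array and 0.84 on the survivors array, a difference of -3.04, which is an 8.22-fold lower signal if the values are plain log2. Probe set 1438708_x_at had 3.48 and 1.88, a difference of -1.60. Both signals came nearer to the array median in the survivors. Probe set 1420879_a_at had 1.69 and 0.46 (-1.23), and 1436783_x_at had 1.77 and 0.57 (-1.20). The remaining pair went in opposite directions, with 1.22 and 0.74 (-0.48) at 1420880_a_at and 0.74 and 1.42 (0.68) at 1420878_a_at. Over the 6 Ywhab probe sets, 4 were lower by more than 1, where 3.93% of all probe sets were, and the median difference was -1.22. Without Ywhab, 6 of the 25 remaining 14-3-3 probe sets were lower by more than 1, with a median of -0.32.

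Ywhae, the epsilon isoform, which binds the neuronal migration protein Ndel1 and tends to pair with other isoforms, is the gene with several probe sets whose values were all lower in the survivors. Probe set 1426384_a_at read 2.42 on the control array and 1.41 on the survivors array (-1.01). Probe set 1435702_s_at had 2.28 and 1.39 (-0.89). The differences at 1438839_a_at (1.68 and 1.16) and 1426385_x_at (1.12 and 0.81) were smaller, at -0.52 and -0.32. The range of the 4 differences, from -1.01 to -0.32, was narrower than for Ywhab, Ywhag, Ywhaq or Ywhaz.

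Ywhag, the gamma isoform, which is prominent in neurons, had values in both directions. Probe set 1450012_x_at read 1.77 on the control array and -0.11 on the survivors array, a difference of -1.89. Only 0.133% of all probe sets lay lower on the survivors array. With low values raised to the 25th percentile of each array, the difference was -1.27. Probe set 1459693_x_at had 3.12 and 2.29 (-0.82). The other probe sets of this gene scarcely differed, with 0.85 and 1.08 (0.23) at 1420816_at and 0.92 on both arrays at 1420817_at. Of these 4 probe sets, the 3 designed from the same GenBank sequence gave differences from -1.89 to 0.23.

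Ywhah, the eta isoform, was read by 1 probe set, at a log2 signal of 1.59 on the control array and 0.57 on the survivors array, a difference of -1.01. Sfn, or 14-3-3 sigma, is an epithelial isoform that p53 induces after DNA damage and that holds cells before mitosis. Its only probe set had 1.26 and 1.07, a difference of -0.19. Each of these genes rests on a single probe set, and both had the same pair of values as many other probe sets, 22 others for Ywhah and 111 for Sfn.

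Ywhaq, the theta isoform, held the largest difference of the family and the only one above 1. Probe set 1460590_s_at read 0.14 on the control array and 5.19 on the survivors array, a difference of 5.05. If the values are plain log2, this is a 33.1-fold higher signal, but the step from scanner signals to the deposited values is not known. It was the 5th largest gain among the 45037 probe sets. The other 7 Ywhaq probe sets did not share it, with differences from -1.95 to 0.18 and survivors signals of at most 2.09 on the log2 scale. Among them, 1437608_x_at had 3.01 and 1.07 (-1.95), and 1420830_x_at and 1460621_x_at, with 1.92 and 0.92 and with 1.97 and 0.97, both had a difference of -1.00. The values were 1.37 and 0.98 (-0.39) at 1420829_a_at and 0.89 and 1.07 (0.18) at 1432842_s_at. Equal values on both arrays were found at 1436846_x_at (2.09) and 1420828_s_at (0.67). In all, 3 Ywhaq probe sets were lower by more than 1 and 1 was higher, beside 3.93% and 3.75% of all probe sets. The gene thus has no single direction on these arrays.

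The genes whose pair of log2 signals lay nearest to that of Ywhaq 1460590_s_at, with 1 probe set per gene and by Euclidean distance over the 2 arrays, were Mtx1, Lama5 and Kcnd2. Mtx1, a mitochondrial outer membrane import protein, read -0.15 on the control array and 4.43 on the survivors array at a distance of 0.820. Lama5, a laminin chain of basement membranes, had 1.16 and 5.09 at a distance of 1.02. Kcnd2, a potassium channel of neurons, had 1.27 and 4.81 at a distance of 1.19. As for Ywhaq, other probe sets of these genes were without the gain, down to a difference of 0.00 for Mtx1 and Lama5 and -0.62 for Kcnd2.

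Ywhaz, the zeta isoform, which binds Bad and many other apoptosis regulators, was the member gene with mostly higher values, none by more than 0.44. Of 7 probe sets 5 were higher and 2 were lower in the survivors, beside 44.2% and 36.4% of all probe sets. Their differences spanned -0.75 to 0.44 around a median of 0.10. The lowest was 1416102_at, at a log2 signal of 1.35 on the control array and 0.60 on the survivors array. The highest was 1448219_a_at, with 0.21 and 0.65. Between them lay 1436981_a_at (1.09 and 0.78, a difference of -0.32), 1436971_x_at (1.27 and 1.38, 0.10), 1416103_at (1.77 and 1.87, 0.10), 1439005_x_at (0.85 and 1.10, 0.25) and 1448218_s_at (0.28 and 0.57, 0.29). No Ywhaz probe set passed a difference of 1, and the 4 designed from 1 GenBank sequence spanned this whole range.

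**Figure D2:**
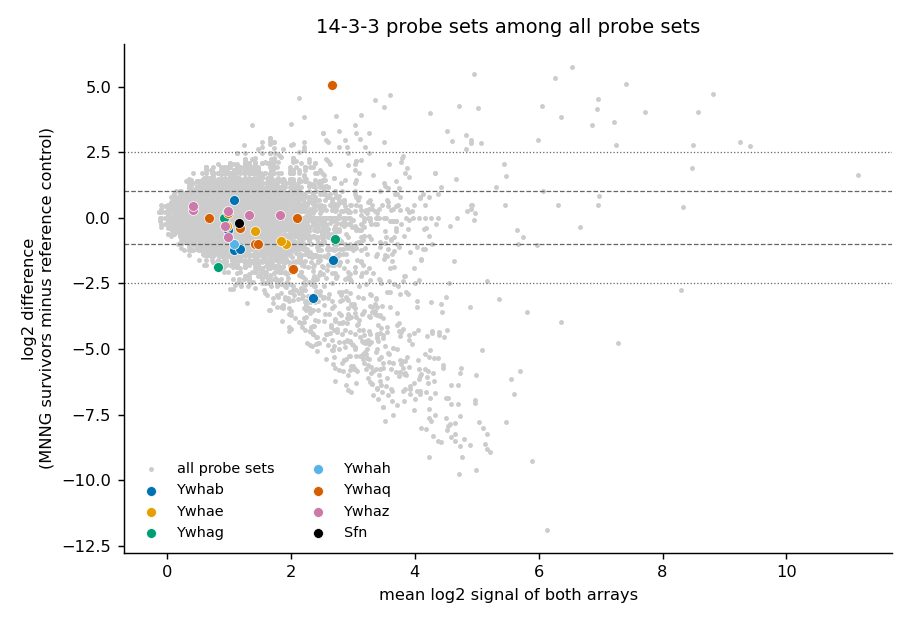
Log2 difference, survivors minus reference control (vertical axis), by mean log2 signal over the arrays (horizontal axis) for all 45037 probe sets (grey) and the 31 of the 14-3-3 genes (colored by gene). Dashed lines mark differences of 1 and -1, dotted lines 2.5 and -2.5. Ywhaq 1460590_s_at stands at 5.05 and Ywhab 1455815_a_at at -3.04, and the other members lie between -1.95 and 0.68.

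The direction of a gene depended on which probe set was read. Of the 5 member genes with several probe sets, 4 had differences of both signs, and Ywhae was the exception. Probe sets made from the same GenBank sequence also differed from each other, from -1.23 to 0.68 over 3 of Ywhab and from -1.00 to 0.00 over 3 of Ywhaq. A second Ywhab sequence gave -3.04 and -1.20, and the sequence shared by a pair of Ywhae probe sets gave -1.01 and -0.32. With the brightest probe set on average standing for each gene, 5 of the 7 genes were lower in the survivors and 2 were higher. Of all genes at such a probe set, 38.1% were lower and 43.5% were higher.

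The share of lower probe sets differed by the kind of probe set and by the control signal, which is itself part of the difference. Affymetrix marks probe sets by their ending: _at for probes unique to a transcript, _a_at for transcripts of the same gene, _s_at for probes shared by several transcripts, and _x_at where some probes match other sequences. The 14-3-3 genes have 11 _x_at probe sets among 31 (35.5%), where the whole array has 5.42%, and 6 _at probe sets (19.4%), where the array has 80.1%. Of the 11 _x_at members 6 (54.5%) were lower by more than 1, beside 15.0% of all _x_at probe sets. For _a_at the count was 3 of 9, beside 6.82%, for _at it was 1 of 6, beside 2.66%, and for _s_at it was 0 of 5, beside 6.80%. Every Ywhab probe set is an _a_at or an _x_at. The Ywhaq gain was at an _s_at probe set, so the signal of inserts against other transcripts cannot be told apart from that of Ywhaq inserts there. A control log2 signal above 1 was found for 22 of the 31 members (71.0%), beside 25.5% of all probe sets. All 10 members that were lower by more than 1 were among these 22 (45.5%), and 15.2% of all probe sets with such a control signal were lower by as much. The median control log2 signal was 1.77 over these 22 and 1.29 over all probe sets above 1. The shares are thus not compared at equal control signal. Of the 9 members with a control signal of 1 or below, 0 were lower by more than 1, beside 0.0745% of all such probe sets. The lowest signal on the survivors array was -0.40, so such a control signal leaves little room for a loss of more than 1. This split was thus largely fixed in advance. The part of probe set kind and of control signal in the family's differences was not tested.

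**Figure D3:**
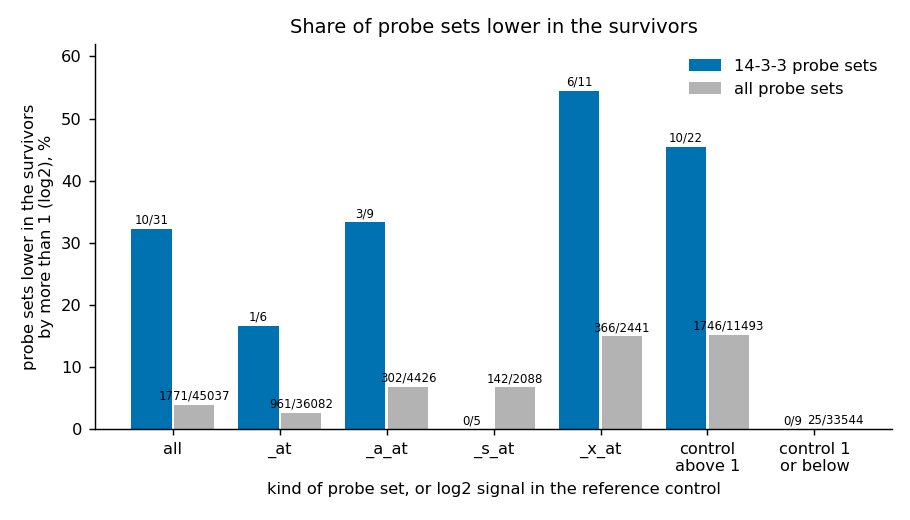
Share of probe sets (vertical axis, %) with a log2 difference below -1, for the 14-3-3 probe sets (blue) and all probe sets (grey), over all and by the ending of the probe set name or the log2 signal in the reference control (horizontal axis). Numbers above the bars are probe sets lower over probe sets in the class, from 10 of 31 over the family to 6 of 11 at _x_at and 0 of 9 at a control signal of 1 or below.

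Many of these values recur across the arrays. The 45037 probe sets hold 6893 distinct pairs of values, and 8.73% have a pair that no other probe set has. Among the members, 12 of 31 had a pair of their own (38.7%), among them the probe sets with the largest gain and the largest loss. A pair shared with 100 or more other probe sets was found for 5 members, up to 490 others for Ywhaz 1448218_s_at. The difference itself, compared to 4 decimals, was shared with other probe sets for 29 of the 31 members, as in Ywhae 1426384_a_at and Ywhah, whose difference of -1.01 was that of 96 other probe sets for each. A difference of its own was found for Ywhaq 1460590_s_at and Ywhaq 1437608_x_at. Of the 12 members with a pair of their own, 6 were lower by more than 1 and 1 was higher, where 28.5% and 12.9% of all probe sets with such a pair were.

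**Figure D4:**
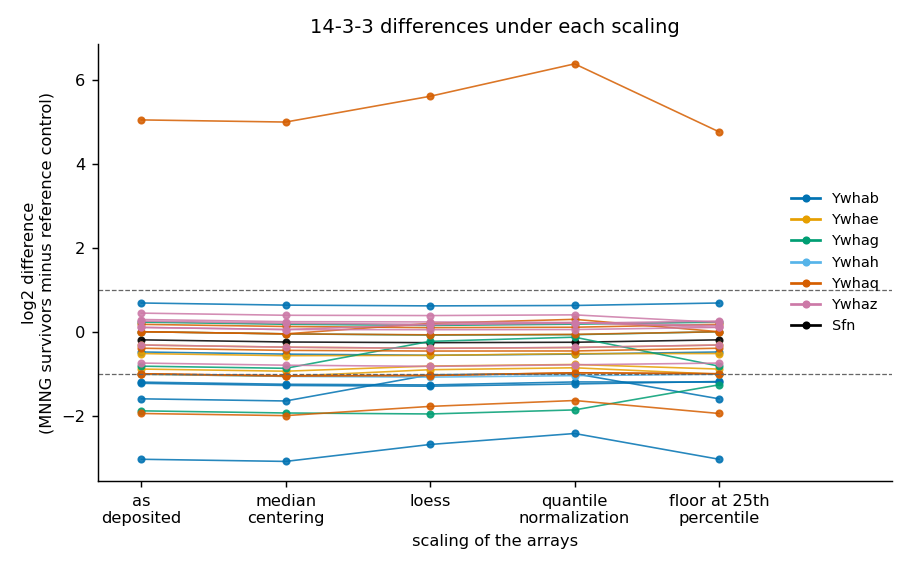
Log2 difference of each 14-3-3 probe set (vertical axis), 1 line per probe set colored by gene, as deposited and under 4 other scalings of the arrays (horizontal axis), with dashed lines at 1 and -1. Ywhaq 1460590_s_at runs from 4.76 to 6.38 and Ywhab 1455815_a_at from -3.09 to -2.43, and the other lines stay between -2.00 and 0.68.

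Under loess and quantile normalization, the 11 members past 1 kept their direction. Median centering, which moved every difference by -0.05, could not turn any of them. Neither could the floor on low values, at 0.43 on the control array and 0.51 on the survivors array. Ywhab 1438708_x_at moved from -1.60 to -1.03 after loess and -1.00 after quantile normalization. Ywhag 1459693_x_at moved from -0.82 to -0.23 and -0.13. After quantile normalization 6 members in place of 10 were lower by more than 1, beside 3.53% of all probe sets. Centering on the hybridization controls, which were brighter on the survivors array, lowered every difference by 2.82 on the log2 scale, and Ywhaq 1460590_s_at was then the only member that was higher, at 2.23.

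The partners of the family were read from 5 lists, of which 92 of 99 genes were measured, each at the probe set with the highest mean. Of the 92, 8 were lower by more than 1 and 7 were higher, beside 5.45% and 4.78% of all genes, and the median difference was 0.00, as over all genes. After quantile normalization the counts were 7 and 11, beside 4.63% and 5.84% of all genes. Of the 20 genes named from these lists, 15 have several probe sets, and 11 of those had differences of both signs.

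Among 18 measured clients of the cell cycle and cell death, 0 were lower by more than 1 and 2 were higher. Of all genes, 5.45% and 4.78% were, and the list median was 0.00. With the median over the probe sets of a gene, 0 were higher by more than 1, beside 2.13% of all genes. Map3k5, the stress kinase ASK1 that 14-3-3 restrains, read 1.07 on the control array and 2.37 on the survivors array (1.31), but -0.14 at its other probe set. Foxo3, a transcription factor that activates death genes once it leaves 14-3-3, had 0.91 and 1.93 (1.01), with differences from -0.39 to 1.01 over 3 probe sets. Cdc25b, a phosphatase that starts mitosis, had 1.07 and 0.14 (-0.92) at its only probe set, a pair of values that 59 probe sets hold. Foxo1 had 1.83 and 1.12 (-0.71), with differences from -1.12 to 0.59 over 4 probe sets.

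Clients of growth factor signaling and metabolism had the highest median of the lists, 0.43 over 17 genes, of which 13 (76.5%) were higher, 1 (5.88%) was lower and 3 (17.6%) were equal, beside 43.5%, 38.1% and 18.4% of all genes. By more than 1, 2 were higher and 1 was lower, beside 4.78% and 5.45% of all genes. The median was 0.25 with the median over the probe sets of a gene and 0.26 at the probe set of highest control value. Rin1, a Ras effector, read 0.63 on the control array and 2.11 on the survivors array (1.48), beside -0.32 at its other probe set. Irs2, an adaptor of the insulin receptor, had 0.28 and 1.45 (1.18) at its only probe set. Sos1, an exchange factor for Ras, had 2.19 and 0.76 (-1.43), while its 5 probe sets reached up to 0.59. Tbc1d1, which controls glucose transporter traffic, had 0.60 and 1.53 (0.92), with differences down to -0.25 over 4 probe sets.

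Of 16 clients in transcription, 2 were lower by more than 1 and 0 were higher, beside 5.45% and 4.78% of all genes. The list median was 0.00. Ctnnb1, the Wnt effector beta-catenin, read 1.46 on the control array and 0.26 on the survivors array (-1.20), and its 3 probe sets were all lower, from -1.20 to -0.39. Mlxipl, a glucose-sensing factor, had 1.58 and 0.58 (-1.00) at its only probe set, a pair of values that 10 probe sets hold. Wwtr1, the Hippo pathway effector TAZ, had 2.62 and 1.71 (-0.91). Hdac4, a deacetylase that 14-3-3 holds in the cytoplasm, had 0.43 and 1.21 (0.78), with differences down to -0.75 over its 3 probe sets.

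Of 14 clients in the cytoskeleton, transport and membranes, 1 was lower by more than 1 and 0 were higher. Of all genes, 5.45% and 4.78% were, and the list median was -0.17. This median followed the choice of probe set, at -0.37 for the highest control value, -0.04 for the median over probe sets and 0.05 for the highest survivors value, where the median of all genes was 0.18. Lrrk2, a kinase mutated in familial Parkinson's disease, read 1.65 on the control array and 0.47 on the survivors array (-1.18) at its only probe set. Arhgef2, whose protein binds microtubules, had 0.50 and 1.42 (0.92), and Mapt, the microtubule protein tau, had 0.24 and 1.16 (0.91). Both turned with the probe set, down to -0.89 and -1.12. The motor protein gene Kif1c had 1.16 and 0.48 (-0.69), with differences up to 0.43 over 4 probe sets.

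The kinases that phosphorylate 14-3-3 docking sites held the largest losses of the lists. Of 28 genes, 4 were lower by more than 1 and 3 were higher, beside 5.45% and 4.78% of all genes. The list median was -0.25. With the median over the probe sets of a gene it was 0.00, and 1 gene was lower by more than 1, beside 2.04% of all genes. At the probe set of highest survivors value it was 0.22 (0.18 over all genes), and 2 were lower by more than 1 (2.96%). Without _x_at and _s_at probe sets 2 were lower by more than 1, beside 4.37% of all genes. Prkd2, a protein kinase D that acts on class II deacetylases, read 8.09 on the control array and 0.57 on the survivors array, a difference of -7.52. Mark1, which phosphorylates microtubule-associated proteins, had 4.84 and 1.03 (-3.81), and Pim3, a survival kinase that acts on Bad, had 4.78 and 2.37 (-2.41). These losses were not shared by every probe set, since differences ran up to 0.00 for Prkd2 and Pim3 and to 1.18 for Mark1. Mapkapk2, a kinase downstream of p38, had 0.59 and 2.04 (1.44) at its only probe set.

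**Figure D5:**
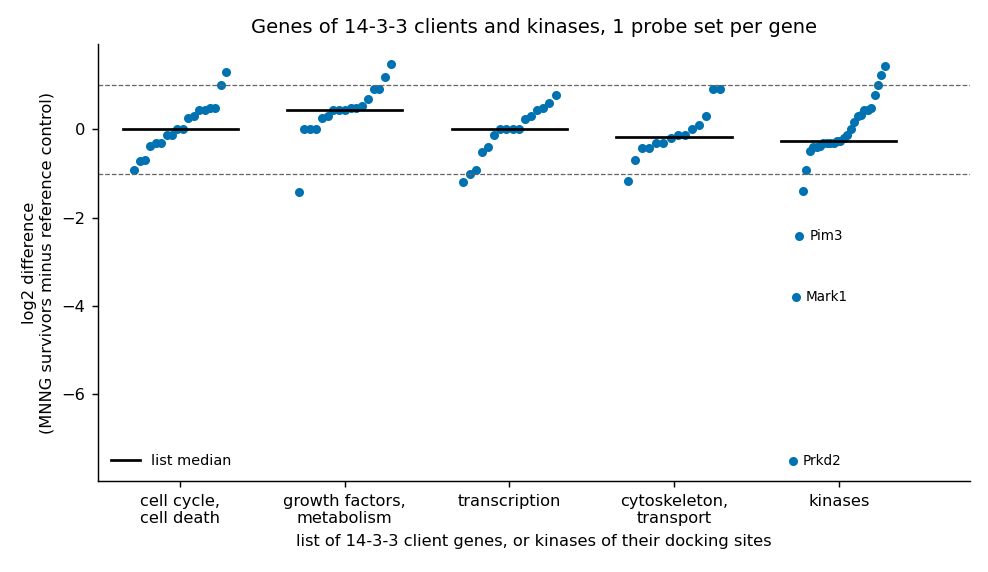
Log2 difference, survivors minus reference control (vertical axis), of each measured gene of the 5 lists of 14-3-3 clients and kinases (horizontal axis), with 1 probe set per gene, points ordered by value within a list, list medians as black lines and dashed lines at 1 and -1. Prkd2, Mark1 and Pim3 lie at -7.52, -3.81 and -2.41, and the other genes lie between -1.43 and 1.48.

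Because the arrays read inserts, the levels of cell type markers do not check the cells. The 10 neural stem cell markers listed had log2 signals from 0.43 to 3.45 in the reference control and from 0.03 to 2.59 in the survivors, with a median difference of 0.20. Gfap, an intermediate filament of astrocytes and neural stem cells, had the largest difference of them, from 3.45 to 1.57.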

How the data were processed

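Inserts of the siRNA library were measured in 2 samples, the reference control and the MNNG survivors, with 1 array each. The values that the authors deposited are log2 signals, 1 for each probe set. For them the processing notes of the submitters list RMA, a method that subtracts background, equalizes probe distributions and combines the probes of a set. Its version is not given in the sources used here, and the step from scanner signals to these values is not known. Software of the library's supplier, R and quantile normalization are named in the paper. The arrays were unequal as deposited, with 99th percentiles of 4.11 and 2.68, so low signals may be compressed and bright ones depend on the scaling. The labels name genomic DNA as the source of the inserts and the paper total RNA.

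The log2 differences of 45037 probe sets (64 Affymetrix controls set aside) were computed here, with counts past 1, 2.5 and a signal of 5. Of these probe sets, 34945 carried 1 gene symbol, 932 several and 9160 none. Symbols of 34741 were updated through the gene ID (GRCm38.p6, names only), and 18193 genes were measured. The number of arrays limits the precision, and no test was possible. The members, lists and limits were chosen with earlier results of these data known. Named were all member probe sets, the 4 genes per list with the largest difference and the 3 genes nearest to the most changed member. Of 99 listed partners, 7 were not analysed here. The counting was tested on simulated data with log2 shifts of 2 and noise far below the spread of the real differences. That checks the code only and gives no rate of wrong counts for these data. Python 3.11.15, numpy 2.4.6, pandas 2.3.3, statsmodels 0.14.6 and matplotlib 3.10.9 were used.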

Additional observations from a re-analysis of the deposited data

How the results depend on the processing

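No paired analysis was possible because each group has 1 array. Median centering, loess (fraction 0.3), quantile normalization, a floor at the 25th percentile, centering on the 18 hybridization controls, leaving out _x_at and _s_at probe sets and symbols as first annotated were tried. The limit of 1.5 and the choice of probe sets with a pair of values of their own were added after seeing the data. After quantile normalization 6 members were lower by more than 1 (3.53% of all probe sets) and 0 by more than 2.5 (0.793%). After centering on the hybridization controls, 30 members were lower by more than 1, where 99.6% of all probe sets were, 28 by more than 2.5 (72.8% of all) and 0 higher by more than 2.5, and the median was -3.22. Without _x_at and _s_at probe sets, 15 members were left, of which 4 were lower by more than 1 (3.12% of all such probe sets), 0 were higher by more than 1 (3.70%) or 2.5 (0.131%), and 0 exceeded 5 in the survivors, because the Ywhaq gain is at an _s_at probe set. Over the 12 members with a pair of their own, 6 were lower by more than 1 (28.5% of all such probe sets) and the median was -0.95 (-0.32). With a limit of 1.5, 4 members were lower (1.72%). The other counts and medians of the family stayed within 1.5 times or 0.1 of the deposited ones. Of single members, 4 of 31 moved by over 0.448, the normal-scaled median absolute deviation across probe sets, after quantile normalization, 3 after loess, 1 with the floor and 0 after median centering. None past 1 changed direction under loess or quantile normalization, and median centering and the floor could not turn any of them. The hybridization controls moved all 31 by the same amount, which could turn no member past 1. Of the clients and kinases, 11 were higher by more than 1 after quantile normalization (5.84% of all genes), and 92 were lower (99.4%) and 0 higher (0.0989%) after centering on the hybridization controls, with a median of -2.82, as over all genes. With the median over the probe sets of a gene, 3 were lower (2.04%) and 2 higher (2.13%). The median was -0.14 at the probe set of highest control value (0.00 over all genes), and 0.28 at that of highest survivors value (0.18), where 4 were lower (2.96%). The cause of these moves was not tested.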
